A study of Mus musculus with 14 samples.

Results

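The nuclear pore complex genes were the 29 of 22430 genes in the deposited count table whose symbol starts with Nup and a digit, or is Pom121, Ndc1, Tpr, Rae1, Seh1l, Sec13, Aaas or Ahctf1. The rule reads the symbol alone. Of the 29, 28 were among the 14269 genes with enough reads to test; Nup62cl, a relative of Nup62, had at most 5 reads in any library and is given by its level only. Ubiquitous progerin went with higher Nup88, Nup155 and Nup93 and lower Nup37, Nup35 and Nup188. Progerin in vascular smooth muscle cells (VSMCs) went with higher Nup160, Sec13 and Nup93 and with lower Ahctf1 and Pom121. No nuclear pore gene was called between the 2 control genotypes, where only 0.175% of all tested genes were called.

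The nuclear pore complex is the channel through which proteins, messenger RNA and ribosomal subunits cross the nuclear envelope. A symmetric scaffold of Y-shaped complexes and an inner ring is anchored by membrane proteins, lined by disordered proteins that carry phenylalanine-glycine repeats, and flanked by cytoplasmic filaments and a nuclear basket that touches the nuclear lamina. Progerin, the lamin A form made in Hutchinson-Gilford progeria, stays farnesylated and remains held at the inner nuclear membrane, next to the pores.

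RNA sequencing was done on aortic intima of mice that all lacked Apoe, the apolipoprotein whose loss makes mice prone to atherosclerosis. The ubiquitous progerin group was Apoe-/- LmnaG609G/G609G, which makes progerin from both Lmna alleles in every cell that uses Lmna; it had 3 pools, and its wild-type control, Apoe-/- Lmna+/+, had 4. The VSMC progerin group was Apoe-/- LmnaLCS/LCS SM22Cre, in which the SM22α promoter, active in smooth muscle, drives Cre and switches on progerin; it had 3 pools. Its lamin C-only control, Apoe-/- LmnaLCS/LCS without Cre, makes lamin C but no lamin A, and had 4 pools. Each pool joined the intima of 12 to 14 mice, so p-values measure the spread between pools and not between animals; age is not given in the labels. The intima was lysed by passing reagent through the lumen of the thoracic aorta, which takes up whatever cells lie at that surface. In such bulk RNA, a smaller number of cells of a type and less RNA per cell cannot be told apart.

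Counts summed to between 27169784 and 35692385 per library. Levels are given as CPM, counts scaled to a library total that was adjusted by a TMM factor. Endothelial markers were the most abundant of the marker lists. Their mean summed level was 20487 CPM in ubiquitous progerin, 22464 in wild-type control, 20543 in VSMC progerin and 21572 in lamin C-only control. Macrophage markers were higher in both progerin groups, with 8 of 8 called in each comparison: the summed level ranged from 658 to 888 CPM in ubiquitous progerin against 44.0 to 63.3 in wild-type control, and from 422 to 505 in VSMC progerin against 42.4 to 86.6 in lamin C-only control. Fibroblast markers (4 of 6) and adipocyte markers (4 of 5) were also called higher in VSMC progerin, summing to 954 and 872 CPM there and to 443 and 262 CPM in the lamin C-only control, while 3 of 7 smooth muscle markers were called lower. In ubiquitous progerin 1 of those 7 was called higher and 3 lower; their sum was 956 CPM there and 604 CPM in wild-type control, led by Tagln at 774 CPM in ubiquitous progerin and 258 CPM in wild-type control. Of 8 endothelial markers, 3 were called higher and 3 lower in ubiquitous progerin, and 3 higher and 4 lower in VSMC progerin. Of all genes tested, 54.6% were called in ubiquitous progerin and 42.0% in VSMC progerin. The smooth muscle list, with 57.1% and 42.9% called, was near those shares. No marker on these lists was at 0 in every library, but 5 of 6 lymphocyte markers averaged under 1 CPM. Mitochondrially encoded genes took 7.68% ± 0.48 of counts in ubiquitous progerin, 5.01% ± 0.36 in wild-type control, 11.8% ± 0.28 in VSMC progerin and 4.02% ± 0.45 in lamin C-only control (SD). These measures differed between the genotypes, and their part in the results that follow was not tested.

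The starts of 4 of the genes with the largest shifts are shown as the 250 bases before the transcription start, 5′ to 3′ on the gene's strand, from RefSeq (GRCm38.p6). Capitals mark matches, on either strand, to GGGCGG (the SP-family box), CCAAT (the NF-Y box) or TATAAA (the TATA box). The entries are Nup160 at chr2:90676965-90677214 (plus strand), Nup88 at chr11:70969974-70970223 (minus strand), Nup93 at chr8:94214314-94214563 (plus strand) and Ahctf1 at chr1:179804016-179804265 (minus strand). The RefSeq start is the GENCODE start of the gene for the first 3; for Ahctf1 it lies 335 bases upstream of it.
Nup160: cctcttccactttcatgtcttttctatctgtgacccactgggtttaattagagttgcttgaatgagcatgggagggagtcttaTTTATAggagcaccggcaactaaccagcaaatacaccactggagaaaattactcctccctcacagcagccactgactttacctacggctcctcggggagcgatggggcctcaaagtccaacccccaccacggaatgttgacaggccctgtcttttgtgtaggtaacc
Nup88: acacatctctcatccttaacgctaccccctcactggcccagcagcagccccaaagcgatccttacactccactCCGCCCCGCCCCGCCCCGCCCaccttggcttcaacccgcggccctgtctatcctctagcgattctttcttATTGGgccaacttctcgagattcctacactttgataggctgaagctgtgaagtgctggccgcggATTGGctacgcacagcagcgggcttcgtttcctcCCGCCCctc
Nup93: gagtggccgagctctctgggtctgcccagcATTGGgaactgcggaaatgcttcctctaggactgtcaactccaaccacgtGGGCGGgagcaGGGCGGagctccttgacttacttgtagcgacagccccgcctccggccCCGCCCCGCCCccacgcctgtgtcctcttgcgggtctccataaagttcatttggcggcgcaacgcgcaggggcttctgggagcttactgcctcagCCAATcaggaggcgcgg
Ahctf1: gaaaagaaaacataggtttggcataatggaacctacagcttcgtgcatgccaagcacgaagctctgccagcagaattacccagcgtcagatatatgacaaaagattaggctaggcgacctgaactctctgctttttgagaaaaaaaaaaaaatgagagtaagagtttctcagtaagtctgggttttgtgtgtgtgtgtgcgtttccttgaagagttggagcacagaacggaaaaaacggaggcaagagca
Nup88 and Nup93 carry 16 and 18 CpG dinucleotides in this window and several GGGCGG and CCAAT matches. Nup160 and Ahctf1 carry 5 and 7 CpG dinucleotides; the only match among those letters is a TATAAA on the reverse strand of Nup160, and Ahctf1 has none.

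RefSeq promoters matched 24 of the 29 genes by symbol. Their median GC content was 63.6%, against 59.6% over 11166 promoters of tested genes and 52.0% over all 27025 promoters. GGGCGG was present in 15 of 24 (62.5%) pore gene promoters and 57.3% of promoters of tested genes, and CCAAT in 10 of 24 (41.7%) and 36.5%. The ETS letters CCGGAAG were found in 6 of 24 (25%) pore gene promoters, those of Aaas, Nup107, Nup155, Nup37, Nup54 and Sec13, and in 13.1% of promoters of tested genes. A match to the NRF1 box was in 3 of 24 (12.5%), Nup107, Nup50 and Nup62, against 7.73% of promoters of tested genes. The CRE letters TGACGTCA were in 2 of 24 (8.33%) against 2.61%, TATAAA in 1 of 24 (4.17%) against 6.73%, and TTTNGCGC (E2F) and ATGGCGGC (YY1) in none, against 1.92% and 1.70%. These are letter matches on both strands, counted as a description, and the CCGGAAG group holds genes that rose, that fell and that did not pass any test.

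Per kilobase of exon, the pore genes spanned a wide range. The length was the union of all annotated exons of a gene, from 2234 bases for Nup62cl to 15116 for Ahctf1. Single transcripts can be shorter than this union, so the order of genes depends in part on the annotation. Sec13 averaged 15 CPM per kb over all 14 libraries and Tpr 14.3. Their order differed between groups: Sec13 was above Tpr in VSMC progerin (20.1 and 12.6) and below it in ubiquitous progerin (13.9 and 14.3), lamin C-only control (13.3 and 14.4) and wild-type control (13.5 and 15.3). Next over all libraries came Pom121 at 10.9, Nup85 at 10.5 and Seh1l at 10.5. The neighbours in this order overlapped between libraries, apart from the step below Ndc1 (1.50 CPM per kb) to Nup210l (0.154) and Nup210 (0.0647). Nup62cl, at 0.0100 CPM per kb, had reads in only 4 of the 14 libraries. Nup210 and its relative Nup210l are ring proteins on the lumenal face of the pore membrane, known for expression restricted to some cell types.

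**Figure D1:**
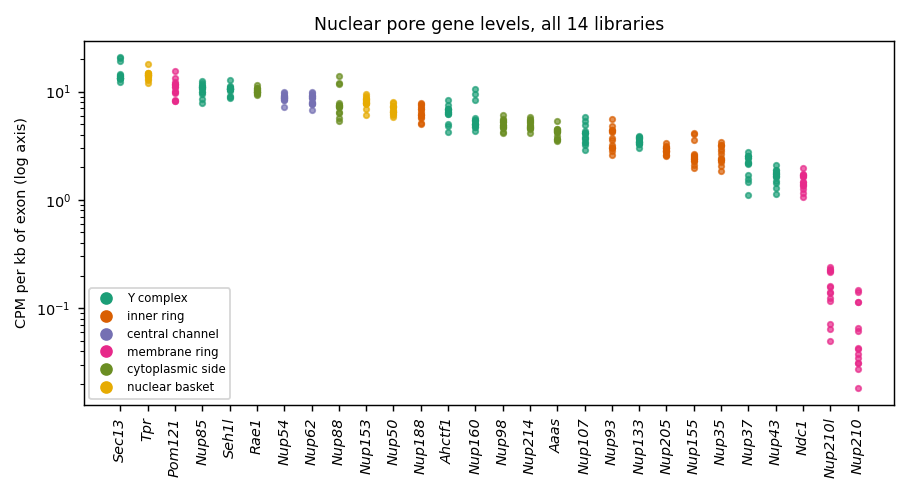
Level of each tested nuclear pore gene per kilobase of exon (union of all annotated exons, log axis), 1 point for each of the 14 libraries, coloured by place in the pore. Most genes lie between 1 and 20 CPM per kb; Nup210l and Nup210 lie at 0.154 and 0.0647 on average.

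In ubiquitous progerin over wild-type control, 6 pore genes rose and 4 fell of the 28 tested, or 35.7%, where 54.6% of all 14269 tested genes were called (26.3% higher and 28.3% lower). The median absolute log2 fold change was 0.16 for the pore genes and 0.39 for all genes. The median signed log2 fold change was -0.02, close to that of all genes. In VSMC progerin over lamin C-only control, 4 rose and 10 fell, or 50%, where 42.0% of all tested genes were called (19.0% higher and 23.0% lower). The median absolute log2 fold change there was 0.21 for the pore genes and 0.28 for all genes, and the signed median was -0.17 for the pore genes and -0.03 for all genes, with 21 of 28 pore genes below 0.

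The count of 10 lower genes in VSMC progerin varied with the scaling and with 1 library. It was 5 with upper-quartile scaling, 14 with library totals alone and 5 without VSMC progerin pool 1. Of all genes called in this comparison, 45.2% were higher as reported, 57.4% with upper-quartile scaling and 33.9% with library totals alone, under which the median of all genes was -0.11. The summed level of all pore genes was 950 ± 18.8 CPM in VSMC progerin (n = 3), with pools from 930 to 968, against 1011 ± 32.5 CPM in the lamin C-only control (SD, n = 4), with pools from 986 to 1059. The same sum was 1097 ± 40.7 CPM in ubiquitous progerin (n = 3) and 1057 ± 42.7 CPM in wild-type control (SD, n = 4), where the pools overlapped.

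**Figure D2:**
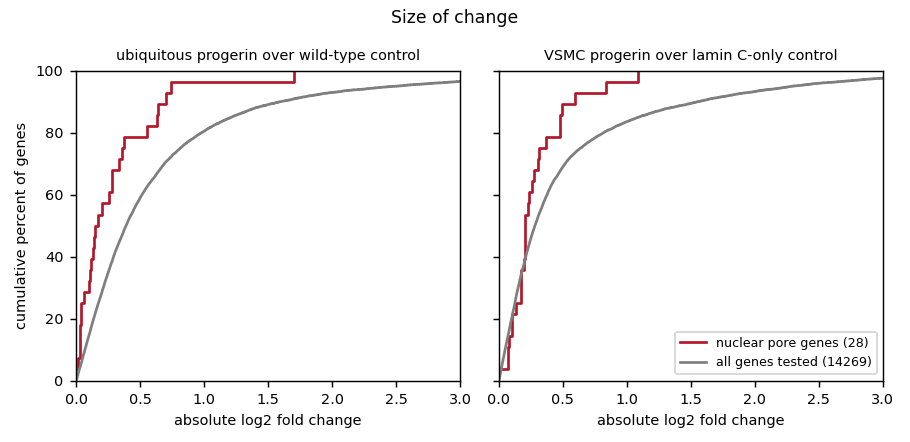
Cumulative percent of genes by absolute log2 fold change, for the 28 pore genes (red) and all 14269 tested genes (grey), in each progerin comparison. The pore gene curve lies left of all genes in ubiquitous progerin (medians 0.16 and 0.39) and nearer to it in VSMC progerin (0.21 and 0.28).

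The Y complex builds the outer rings of the scaffold from Nup107, Nup133, Nup160, Nup85, Nup43, Nup37, Seh1l, Sec13 and, on the nuclear side, Ahctf1 (also called ELYS). Of these 9 genes, 2 rose and 3 fell in VSMC progerin, and 0 rose and 1 fell in ubiquitous progerin. That is 55.6% called in VSMC progerin and 11.1% in ubiquitous progerin, against 42.0% and 54.6% of all genes. The list leaves out Nup96, also of the Y complex, which the Nup98 transcript encodes. Nup98 is counted here with the cytoplasmic side. Nup160, the tip of 1 arm of the Y, had 92.5, 82.6 and 73.6 CPM in the VSMC progerin pools and 47.7, 46.5, 49.6 and 41.3 CPM in the lamin C-only control pools. Every VSMC progerin pool lay above every control pool, with a log2 fold change of 0.84 ± 0.08 (SE; edgeR adjusted p = 1.17e-07). In ubiquitous progerin Nup160 had 44.3, 43.3 and 43.7 CPM, within the 41.5, 43.6, 37.7 and 47.7 CPM of wild-type control (0.04 ± 0.09, edgeR adjusted p = 0.727). The gene lies at chr2:90677215-90736328 on the plus strand of GRCm38, and its promoter, shown above, has few CpG dinucleotides. 

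Sec13 serves in the Y complex, in the outer coat of COPII vesicles that leave the endoplasmic reticulum, and in the GATOR2 complex that relays amino acid supply to mTORC1. It had 66.0, 65.1 and 61.0 CPM in VSMC progerin and 42.8, 45.8, 39.4 and 41.9 CPM in the lamin C-only control. The pools did not overlap and the log2 fold change was 0.59 ± 0.06 (SE; edgeR adjusted p = 3.67e-07). In ubiquitous progerin its 45.5, 44.5 and 42.4 CPM overlapped the 42.8, 42.2, 44.6 and 42.9 CPM of wild-type control (0.03 ± 0.07, edgeR adjusted p = 0.691). Sec13 lies at chr6:113728062-113740743 on the minus strand.

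Ahctf1, which binds chromatin and starts pore assembly after mitosis, moved the other way in VSMC progerin. It had 72.5, 64.0 and 76.7 CPM there and 105, 103, 94.7 and 94.4 CPM in the lamin C-only control. The groups were well apart, with a log2 fold change of -0.48 ± 0.08 (SE; edgeR adjusted p = 6.83e-05). In ubiquitous progerin it had 98.0, 105 and 96.5 CPM, overlapping the 126, 105, 97.2 and 113 CPM of wild-type control (-0.14 ± 0.08, edgeR adjusted p = 0.140). Nup85, in the other arm of the Y, had 26.6, 32.0 and 29.2 CPM in VSMC progerin and 37.5, 37.9, 35.4 and 33.6 CPM in the lamin C-only control. It fell without overlap (-0.30 ± 0.08, edgeR adjusted p = 0.00597), although without VSMC progerin pool 1 the adjusted p was 0.0638. Seh1l, the partner of Nup85 and, like Sec13, a member of GATOR2, had 37.8, 36 and 36.9 CPM in VSMC progerin and 45.8, 41.3, 43.2 and 43.5 CPM in the lamin C-only control. It also fell without overlap (-0.24 ± 0.07, edgeR adjusted p = 0.0129), with an adjusted p of 0.0815 under upper-quartile scaling.

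Among the Y complex genes listed, only Nup37, a small propeller protein that caps Nup160, was called in ubiquitous progerin. It had 3.72, 4.82 and 5.24 CPM there and 7.30, 8.11, 7.12 and 7.27 CPM in wild-type control. All 3 progerin pools lay below the 4 control pools (log2 fold change -0.70 ± 0.18, SE; edgeR adjusted p = 0.00232). In VSMC progerin its 9.15, 8.53 and 5.69 CPM spread around the 8.41, 7.52, 8.19 and 8.52 CPM of lamin C-only control (-0.07 ± 0.17, edgeR adjusted p = 0.779). Nup43, another propeller protein, averaged 3.59 ± 0.66 CPM in ubiquitous progerin (n = 3) and 4.63 ± 0.47 CPM in wild-type control (SD, n = 4), a log2 fold change of -0.37 ± 0.21 that was not called. Nup107 and Nup133, which join in the stem of the Y, were not called in either comparison. Nup133 averaged 22.7 ± 1.52 CPM in VSMC progerin (n = 3) and 25.6 ± 1.67 CPM in the lamin C-only control (SD, n = 4; -0.17 ± 0.09, edgeR adjusted p = 0.120). Nup107 averaged 19.8 ± 2.94 CPM in ubiquitous progerin (n = 3) and 16.3 ± 2.00 CPM in wild-type control (SD, n = 4; 0.28 ± 0.14, edgeR adjusted p = 0.0836).

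Proteins of the Y complex assemble in equal number, so the counts of partners were also set against each other within each library; these pairs were picked after their values were seen and are given without a test. The ratio of Nup160 to Nup133 counts was 3.68 ± 0.67 in VSMC progerin (n = 3) and 1.81 ± 0.09 in lamin C-only control (SD, n = 4). It was 1.75 ± 0.12 in ubiquitous progerin (n = 3) and 1.68 ± 0.10 in wild-type control (SD, n = 4). The ratio of Sec13 to Seh1l counts was 1.74 ± 0.08 in VSMC progerin and 0.980 ± 0.089 in lamin C-only control, and 0.979 ± 0.032 in ubiquitous progerin and 0.943 ± 0.095 in wild-type control. Such ratios do not depend on the library scaling.

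**Figure D3:**
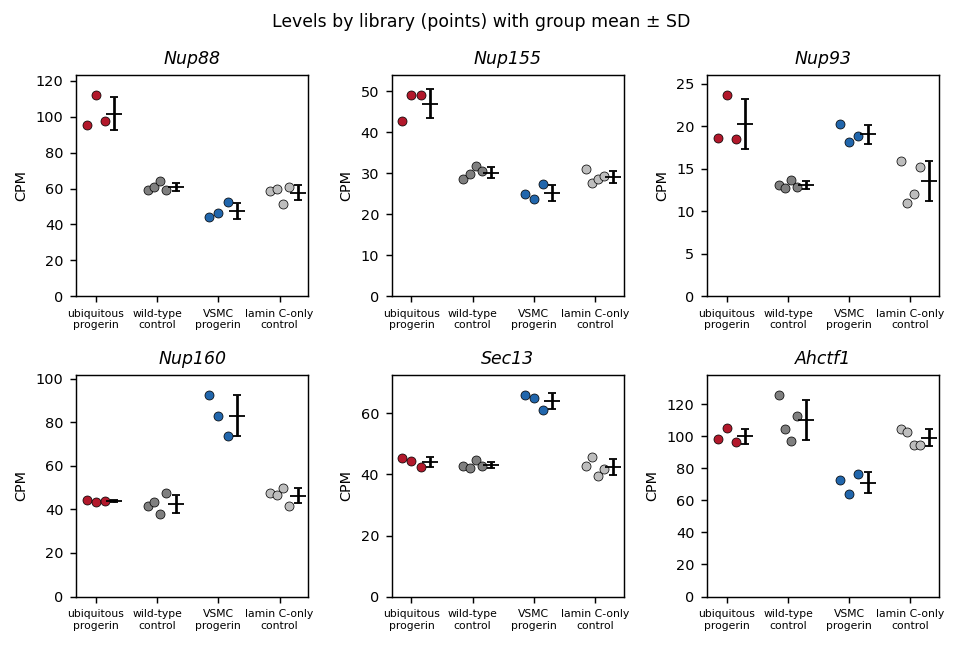
Level in CPM of 6 pore genes in each library (points) with the group mean and SD (bars), by genotype. Nup88 and Nup155 are high in the 3 ubiquitous progerin pools, Nup160 and Sec13 are high and Ahctf1 low in the 3 VSMC progerin pools, and Nup93 is high in both progerin groups.

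The inner ring, which spans the pore's waist and holds the central channel, is built from Nup205, Nup188, Nup93, Nup155 and Nup35. Of these 5 genes, 2 rose and 2 fell in ubiquitous progerin, and 1 rose and 2 fell in VSMC progerin. That is 80% and 60% called, against 54.6% and 42.0% of all genes. Nup155, which ties the ring to the membrane, had 42.8, 49.1 and 48.9 CPM in ubiquitous progerin and 28.5, 29.8, 31.7 and 30.4 CPM in wild-type control. The groups were far apart, with a log2 fold change of 0.64 ± 0.08 (SE; edgeR adjusted p = 9.77e-07). In VSMC progerin it had 24.8, 23.6 and 27.4 CPM against 31.0, 27.6, 28.7 and 29.4 CPM in the lamin C-only control. That drop of -0.21 ± 0.08 was called (edgeR adjusted p = 0.0465), but not in 19 of 25 alternative settings, where the adjusted p reached 0.198. The lost settings included leaving out VSMC progerin pools 1 or 2, lamin C-only control pools 1, 3 or 4, ubiquitous progerin pools 1 or 3, or wild-type control pools 2, 3 or 4, with edgeR adjusted p from 0.0504 to 0.172. Nup155 lies at chr15:8109273-8161247 on the plus strand.

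Nup93, the linker that recruits the channel proteins to the ring, rose in both progerin groups. It had 18.6, 23.7 and 18.5 CPM in ubiquitous progerin and 13, 12.8, 13.7 and 12.9 CPM in wild-type control. It had 20.3, 18.1 and 18.8 CPM in VSMC progerin and 15.9, 11, 12 and 15.2 CPM in the lamin C-only control. Neither pair of groups overlapped, with log2 fold changes of 0.63 ± 0.13 (edgeR adjusted p = 0.00028) and 0.49 ± 0.13 (edgeR adjusted p = 0.00357). The difference between the effects was 0.14 ± 0.18 (SE; edgeR adjusted p = 0.573). 

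Nup188, a large scaffold protein that takes the place of Nup205 in some ring positions, fell in both. It had 38.2, 35.5 and 36.5 CPM in ubiquitous progerin and 49.1, 43.3, 45.3 and 47.7 CPM in wild-type control, without overlap (-0.34 ± 0.08, edgeR adjusted p = 0.0019). It had 31.6, 38.2 and 31.9 CPM in VSMC progerin and 46.8, 38.8, 40.4 and 42.7 CPM in the lamin C-only control, again without overlap (-0.31 ± 0.08, edgeR adjusted p = 0.00468). Its paralog Nup205 was not called: it averaged 27.8 ± 3.41 CPM in ubiquitous progerin, 27.6 ± 1.07 in wild-type control, 25.3 ± 1.43 in VSMC progerin and 26.7 ± 2.03 in lamin C-only control (SD; n = 3, 4, 3 and 4). Nup35, a membrane-binding protein of the ring (also called Nup53), had 6.21, 7.53 and 6.91 CPM in ubiquitous progerin and 8.22, 10.5, 10.8 and 10.8 CPM in wild-type control. It fell without overlap (-0.55 ± 0.16, edgeR adjusted p = 0.00526). In VSMC progerin its 11.5, 8.03 and 9.99 CPM overlapped the 9.58, 8.89, 7.81 and 7.81 CPM of lamin C-only control (0.21 ± 0.15, edgeR adjusted p = 0.296).

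Count ratios within libraries set the inner ring genes against each other. The ratio of Nup155 to Nup205 was 1.69 ± 0.11 in ubiquitous progerin (n = 3) and 1.09 ± 0.09 in wild-type control (SD, n = 4), and 1.00 ± 0.09 in VSMC progerin (n = 3) and 1.1 ± 0.10 in lamin C-only control (SD, n = 4). The ratio of Nup155 to Nup93 was 2.34 ± 0.29 in ubiquitous progerin and 2.30 ± 0.08 in wild-type control, and 1.33 ± 0.12 in VSMC progerin and 2.19 ± 0.29 in lamin C-only control (SD). These pairs too were picked after their values were seen.

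The membrane ring holds the proteins that anchor the pore in the nuclear envelope: Ndc1, Pom121, Nup210 (gp210) and Nup210l. Of these 4 genes, 2 rose in ubiquitous progerin and 1 fell in VSMC progerin, or 50% and 25% called, against 54.6% and 42.0% of all genes. Pom121, a transmembrane protein of early pore assembly, had 73.9, 86.6 and 65.2 CPM in ubiquitous progerin and 67.8, 54.0, 65.4 and 61.3 CPM in wild-type control. The groups overlapped in 1 progerin pool, and the rise of 0.28 ± 0.09 (edgeR adjusted p = 0.0112) depended on pool 2, without which it was 0.16 (edgeR adjusted p = 0.139). In VSMC progerin Pom121 had 46.3, 46.2 and 45.9 CPM and in lamin C-only control 64.0, 57.0, 61.4 and 55.4 CPM. It fell without overlap, with a log2 fold change of -0.37 ± 0.09 (SE; edgeR adjusted p = 0.00246). Nup210 was barely expressed: it had 1.19, 1.19 and 1.54 CPM in ubiquitous progerin and 0.638, 0.449, 0.325 and 0.190 CPM in wild-type control. It rose (1.70 ± 0.60, edgeR adjusted p = 0.0216), but not without ubiquitous progerin pool 3 (adjusted p = 0.0715) or wild-type control pool 4 (adjusted p = 0.063). Macrophage markers rose in the same libraries, and their part in the rise of Nup210 was not tested. In VSMC progerin Nup210 had 1.47, 0.687 and 0.286 CPM against 0.363, 0.435, 0.325 and 0.398 CPM in the lamin C-only control. The ranges overlapped and the change was not called (1.08 ± 0.60, edgeR adjusted p = 0.161). The difference between the 2 effects on Nup210 was not called either (0.62 ± 0.86, edgeR adjusted p = 0.597). 

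Ndc1, the multipass protein that binds Aaas, averaged 8.73 ± 0.90 CPM in ubiquitous progerin (n = 3) and 6.81 ± 1.1 CPM in wild-type control (SD, n = 4; 0.36 ± 0.18, edgeR adjusted p = 0.0931). It averaged 6.81 ± 1.54 CPM in VSMC progerin (n = 3) and 7.31 ± 0.86 CPM in the lamin C-only control (SD, n = 4; -0.10 ± 0.18, edgeR adjusted p = 0.680). Nup210l stayed between 0.283 and 1.38 CPM in the 14 libraries and was not called.

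The central channel is filled by Nup62, Nup54 and Nup58, whose repeats form the selective barrier. Of the 2 tested genes, 0 were called in ubiquitous progerin and 1 fell in VSMC progerin, where 54.6% and 42.0% of all genes were called. Nup62 had 21.9, 22.6 and 19.3 CPM in VSMC progerin and 25, 27.9, 23.0 and 25.8 CPM in the lamin C-only control. The pools did not overlap, though the narrow call (-0.26 ± 0.10, edgeR adjusted p = 0.0374) was lost in 13 of 25 alternative settings. These included leaving out VSMC progerin pools 1 or 3, lamin C-only control pools 1, 2 or 4, or ubiquitous progerin pools 1 or 3, with edgeR adjusted p from 0.0588 to 0.156. In ubiquitous progerin it had 25.9, 28.3 and 24.9 CPM and in wild-type control 22.6, 22.0, 25.4 and 26.5 CPM, which overlapped (0.13 ± 0.10, edgeR adjusted p = 0.274). Nup54 lay between 23.9 and 32.8 CPM in all libraries and was not called. Nup62cl was at 0 in every wild-type control pool and reached 0.156 CPM in 1 VSMC progerin pool. Nup58 is not in the table under that symbol; its older symbol, Nupl1, is listed at 0 in 12 of 14 libraries, which does not show that the gene was silent, since a 0 in estimated counts can also be a failed estimate.

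On the cytoplasmic side, Nup214 and Nup88 form the platform that remodels exported messenger RNA particles, Nup98 and its partner Rae1 bind messenger RNA export factors, and Aaas (aladin) is the protein mutated in triple A syndrome. Of these 5 genes, 2 rose and 1 fell in ubiquitous progerin and 1 fell in VSMC progerin, or 60% and 20% called, against 54.6% and 42.0% of all genes. Nup88 had 95.7, 112 and 97.5 CPM in ubiquitous progerin and 59.3, 60.8, 64.0 and 59.5 CPM in wild-type control. No pool came near the other group; the log2 fold change of 0.74 ± 0.08 (SE; edgeR adjusted p = 7.47e-08) had the smallest p among the pore genes in this comparison. In VSMC progerin Nup88 had 43.9, 46.4 and 52.7 CPM against 58.7, 59.7, 51.4 and 60.7 CPM in the lamin C-only control. It fell, with 1 control pool inside the progerin range (-0.27 ± 0.08, edgeR adjusted p = 0.00763), though not without VSMC progerin pool 1 (adjusted p = 0.0863). Nup88 lies at chr11:70943058-70969973 on the minus strand, and its promoter, shown above, carries 5 GGGCGG and 2 CCAAT matches.

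Nup214, the partner of Nup88, moved less. It had 50.4, 53.7 and 56.7 CPM in ubiquitous progerin and 51.7, 46.2, 44.0 and 44.2 CPM in wild-type control. The ranges overlapped through wild-type control pool 1, and the rise was small (0.21 ± 0.08, edgeR adjusted p = 0.0274); the call was lost in 6 of 25 alternative settings. They were the replicate block (adjusted p = 0.0551) and leaving out ubiquitous progerin pools 2 or 3 or wild-type control pools 2, 3 or 4, with edgeR adjusted p from 0.0521 to 0.115. In VSMC progerin it had 40.4, 44.5 and 45.3 CPM against 53.2, 47.8, 45.5 and 49.3 CPM in the lamin C-only control (-0.17 ± 0.08, edgeR adjusted p = 0.0756). The ratio of Nup88 to Nup214 counts, a pair picked after its values were seen, was 1.90 ± 0.19 in ubiquitous progerin (n = 3) and 1.32 ± 0.13 in wild-type control (SD, n = 4). It was 1.1 ± 0.06 in VSMC progerin (n = 3) and 1.18 ± 0.07 in lamin C-only control (SD, n = 4).

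Nup98, whose transcript also encodes the Y complex protein Nup96, had 52.0, 57.7 and 61.1 CPM in ubiquitous progerin and 75.9, 68.4, 61.4 and 65.8 CPM in wild-type control. It fell, with the groups just apart (-0.25 ± 0.08, edgeR adjusted p = 0.0132), though not without ubiquitous progerin pool 1 (adjusted p = 0.0994). In VSMC progerin its 62.2, 59.6 and 53.8 CPM overlapped the 70.7, 58.7, 66.6 and 67.6 CPM of lamin C-only control (-0.17 ± 0.08, edgeR adjusted p = 0.0992). Rae1 ranged from 23.9 to 29.3 CPM and Aaas from 9.79 to 14.8 CPM over all 14 libraries, and neither was called in either progerin comparison.

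The nuclear basket, the part that faces the lamina, is made of Nup153, Nup50 and Tpr. Of these 3 genes, 0 were called in ubiquitous progerin, while 1 rose and 2 fell in VSMC progerin; of all genes, 54.6% and 42.0% were called. Nup153, which binds lamins and anchors the basket, had 54.6, 43.0 and 48.0 CPM in VSMC progerin and 56.9, 54.5, 59.7 and 56.0 CPM in the lamin C-only control. Progerin pool 1 lay just inside the control range, and the log2 fold change was -0.23 ± 0.08 (SE; edgeR adjusted p = 0.0197). Tpr, the coiled-coil filament of the basket, had 134, 126 and 137 CPM in VSMC progerin and 157, 148, 156 and 144 CPM in the lamin C-only control. It fell without overlap (-0.20 ± 0.07, edgeR adjusted p = 0.0344). Nup50, a mobile partner of Nup153 that helps release import cargo, had 38.6, 32.0 and 35.9 CPM in VSMC progerin and 32.0, 32.6, 28.4 and 29.9 CPM in the lamin C-only control. It rose (0.21 ± 0.08, edgeR adjusted p = 0.049), with progerin pool 2 inside the control range. The calls of Nup153, Tpr and Nup50 were lost in 4, 11 and 13 of 25 alternative settings, with adjusted p up to 0.140, 0.175 and 0.218. For Nup153 they included leaving out VSMC progerin pool 2 (edgeR adjusted p = 0.140) or lamin C-only control pool 3 (0.0568). For Tpr they included leaving out VSMC progerin pools 1 or 2, lamin C-only control pools 1 or 3, or ubiquitous progerin pools 1 or 3 (edgeR adjusted p from 0.0734 to 0.125). For Nup50 they included leaving out VSMC progerin pools 1 or 3, lamin C-only control pools 1, 3 or 4, ubiquitous progerin pool 2, or wild-type control pools 2, 3 or 4 (edgeR adjusted p from 0.0502 to 0.158). In ubiquitous progerin the log2 fold changes were -0.15 ± 0.08 for Nup153, -0.10 ± 0.07 for Tpr and 0.17 ± 0.08 for Nup50 (SE).

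**Figure D4:**
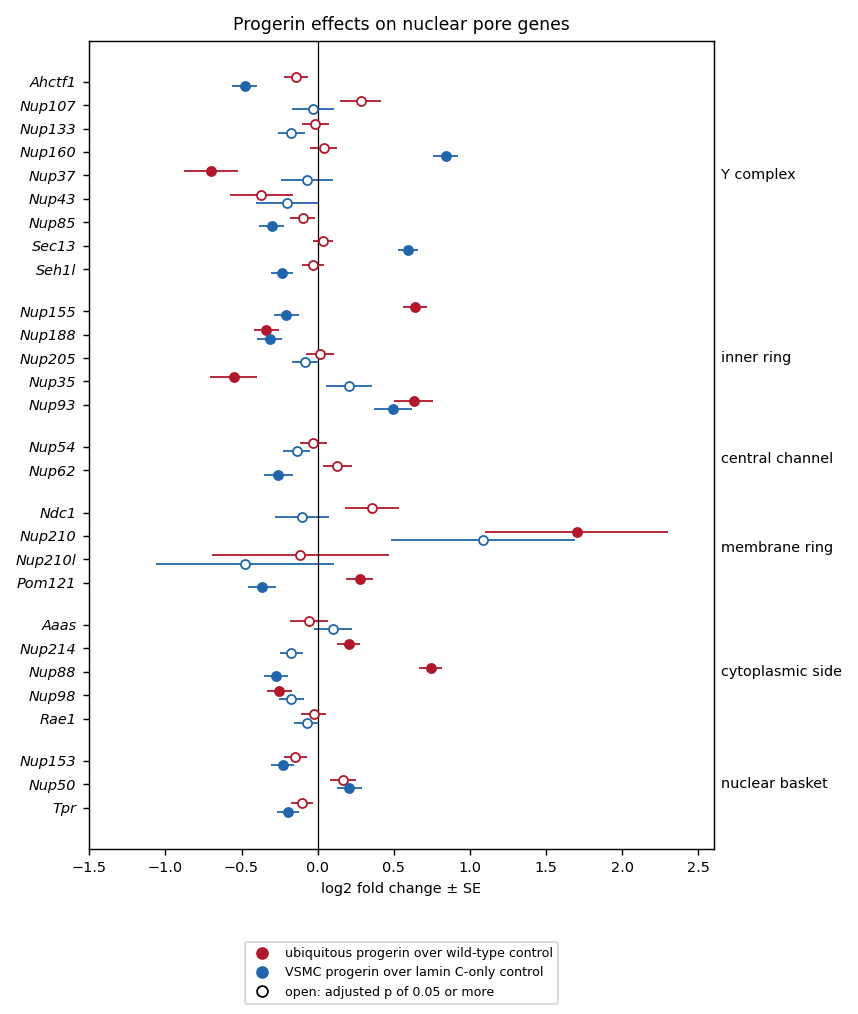
Log2 fold change with SE of the 28 tested pore genes in ubiquitous progerin over wild-type control (red) and VSMC progerin over lamin C-only control (blue), grouped by place in the pore; filled points were called. Nup93 and Nup188 lie on the same side of 0 in both, while Nup88, Nup155 and Pom121 lie on opposite sides.

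Over the 28 tested genes, 19 were called in at least 1 progerin comparison, 5 in both and 9 in neither. These are 67.9%, 17.9% and 32.1%, against 69.4%, 27.2% and 30.6% of all genes tested. Of the 5, Nup93 rose in both, Nup188 fell in both, and Nup88, Nup155 and Pom121 rose in ubiquitous progerin and fell in VSMC progerin. The 2 comparisons have no library in common, and the difference of their effects was tested in the same fit. That difference was called for 10 of 28 pore genes (35.7%), 6 higher and 4 lower, where 44.2% of all tested genes were called (22.4% higher and 21.8% lower). The signs of the 2 effects were opposite in 6 of the 10. Of these 6, Nup88, Nup155 and Pom121 were called in both comparisons, while Nup214, Nup62 and Nup35 were called in only 1. Choosing genes by a difference itself favours opposite signs, and the matching share over all genes was not computed. The ubiquitous progerin effect was the higher for Nup88 by 1.01 ± 0.11 (SE; edgeR adjusted p = 2.6e-07), for Nup155 by 0.85 ± 0.11 (edgeR adjusted p = 4.7e-06) and for Pom121 by 0.64 ± 0.12 (edgeR adjusted p = 0.000287) on the log2 scale. It was the lower for Nup160 by -0.80 ± 0.12 (edgeR adjusted p = 2e-05), for Sec13 by -0.56 ± 0.09 (edgeR adjusted p = 5.46e-05) and for Nup35 by -0.76 ± 0.22 (edgeR adjusted p = 0.0076). The other 4 were Nup214, Ahctf1, Nup62 and Nup37, with differences of 0.38, 0.34, 0.38 and -0.63; those of Ahctf1, Nup62 and Nup37 were not called in 3, 5 and 14 of 24 alternative settings. For Ahctf1 these included leaving out pool 2 of VSMC progerin (edgeR adjusted p = 0.0639) or of ubiquitous progerin (0.0525). For Nup62 they included leaving out VSMC progerin pool 3, lamin C-only control pool 2, or pool 2 of ubiquitous progerin or wild-type control (edgeR adjusted p from 0.0555 to 0.0739). For Nup37 they included leaving out pool 1 or 2 of either progerin group, any lamin C-only control pool, or wild-type control pools 2 or 4 (edgeR adjusted p from 0.0518 to 0.110).

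**Figure D5:**
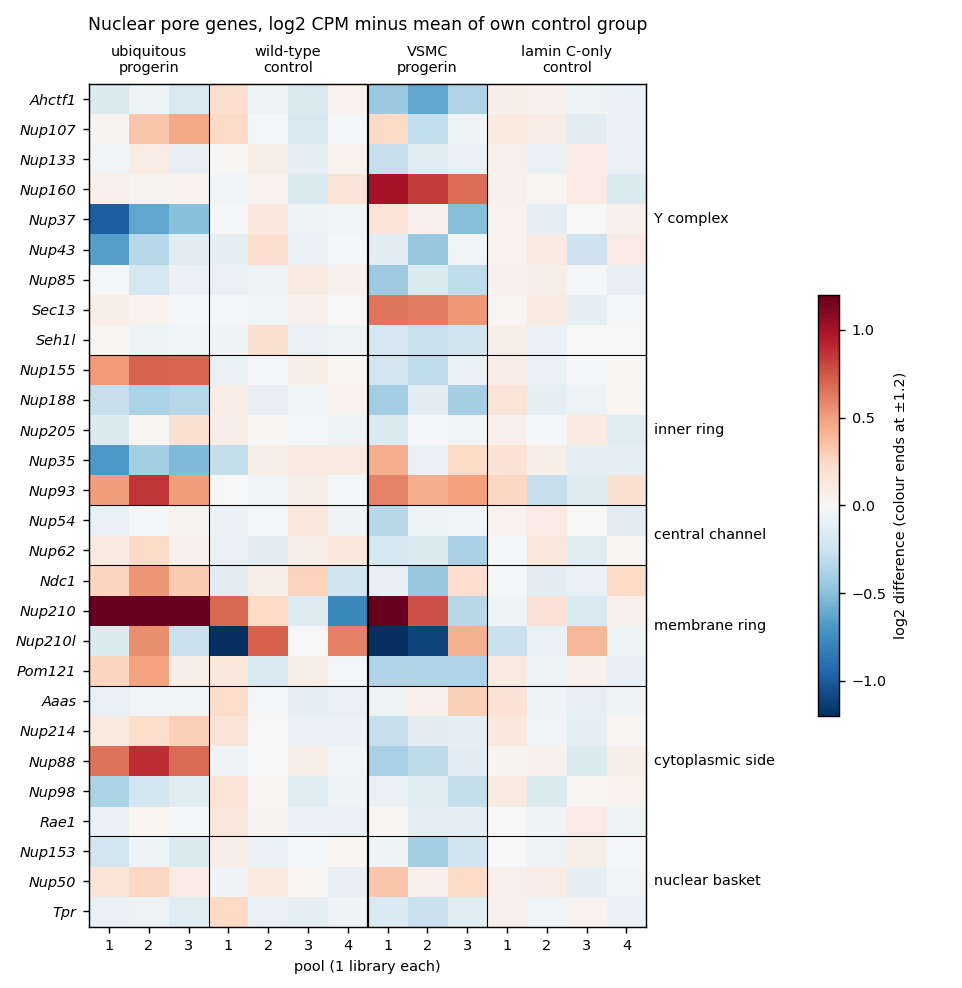
Log2 CPM of each tested pore gene in each library minus the mean of its control group (wild-type control for the left block, lamin C-only control for the right), by place in the pore. Red blocks stand out for Nup88, Nup155, Nup93 and Nup210 in ubiquitous progerin and for Nup160, Sec13 and Nup93 in VSMC progerin. Nup210 and Nup210l reach at most 1.54 and 1.38 CPM in any library, and both vary among pools of a group.

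Between the controls, lamin C-only over wild-type, 0 of 28 pore genes were called in either direction, where 0.175% of all tested genes were called (0.0911% higher and 0.0841% lower). Of the pore genes, 1 had an unadjusted p under 0.05, and DESeq2 also called 0. The smallest edgeR adjusted p was 0.565, for Aaas, which averaged 10.5 ± 0.91 CPM in the lamin C-only control (n = 4) and 12.8 ± 1.41 CPM in wild-type control (SD, n = 4), a log2 fold change of -0.29 ± 0.12. This comparison shares its libraries with both progerin comparisons. Lmna itself, whose alleles define the groups, had 118 ± 3.34 CPM in ubiquitous progerin, 119 ± 5.01 in wild-type control, 227 ± 25.6 in VSMC progerin and 132 ± 6.70 in lamin C-only control (SD); a gene-level count does not tell progerin, lamin A and lamin C apart.

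The genes that work with the pore were read from lists of transport factors. Of 16 import receptors, 1 rose and 6 fell in ubiquitous progerin, and 1 rose and 6 fell in VSMC progerin. That is 43.8% called in each, against 54.6% of all genes in ubiquitous progerin and 42.0% in VSMC progerin. Without ubiquitous progerin pool 2, 0 rose in ubiquitous progerin. The 6 lower in VSMC progerin were 3 with DESeq2 or relative log expression scaling, 2 with upper-quartile scaling, and 3 without ubiquitous progerin pools 1 or 3, VSMC progerin pool 2, or lamin C-only control pools 1 or 3. Ipo13, a bidirectional carrier, averaged 17.2 ± 2.38 CPM in ubiquitous progerin (n = 3) and 35.0 ± 2.35 CPM in wild-type control (SD, n = 4; log2 fold change -1.03 ± 0.09, edgeR adjusted p = 1.71e-08). Kpna2, an importin alpha abundant in dividing cells, averaged 21.5 ± 0.59 CPM in VSMC progerin (n = 3) and 8.64 ± 2.12 CPM in the lamin C-only control (SD, n = 4; 1.32 ± 0.25, edgeR adjusted p = 0.00063). Kpnb1, the main importin beta, fell in VSMC progerin to 162 ± 8.52 CPM, against 191 ± 5.74 CPM in the lamin C-only control (SD; -0.24 ± 0.06, edgeR adjusted p = 0.00137). Of 7 export receptors, 2 rose and 2 fell in ubiquitous progerin (57.1% called) and 3 fell in VSMC progerin (42.9%), which is near the share of all genes in each. Xpo1, the exporter of proteins with a leucine-rich signal, averaged 96.0 ± 6.0 CPM in ubiquitous progerin and 65.3 ± 3.98 CPM in wild-type control (SD; 0.56 ± 0.07, edgeR adjusted p = 1.32e-06). Xpot, the exporter of transfer RNA, averaged 31.6 ± 0.22 CPM in ubiquitous progerin and 45.1 ± 3.81 CPM in wild-type control (SD; -0.51 ± 0.07, edgeR adjusted p = 4.57e-06).

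The Ran cycle, which gives transport its direction, had 0 of 7 genes higher and 2 lower in ubiquitous progerin, and 3 higher and 0 lower in VSMC progerin. That is 28.6% and 42.9% called, against 54.6% and 42.0% of all genes. Without wild-type control pool 2, 1 was lower in ubiquitous progerin. Ran itself averaged 63.4 ± 0.49 CPM in ubiquitous progerin and 73.6 ± 5.41 CPM in wild-type control (SD; -0.22 ± 0.07, edgeR adjusted p = 0.0124). It averaged 93.0 ± 3.75 CPM in VSMC progerin and 73.0 ± 5.83 CPM in the lamin C-only control (SD; 0.35 ± 0.07, edgeR adjusted p = 0.000335). Rangap1, the GTPase activator held at the cytoplasmic filaments, likewise fell in ubiquitous progerin (-0.53 ± 0.11, edgeR adjusted p = 0.000286) and rose in VSMC progerin (0.30 ± 0.10, edgeR adjusted p = 0.0246). Ranbp2, the filament protein also called Nup358, was not called in either: it averaged 144 ± 1.17 CPM in ubiquitous progerin, 141 ± 16.2 in wild-type control, 124 ± 15.5 in VSMC progerin and 131 ± 7.74 in lamin C-only control (SD).

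Messenger RNA export factors showed 10 of 17 genes higher and 1 lower in ubiquitous progerin, and 1 higher and 3 lower in VSMC progerin. Of all genes, 26.3% were called higher and 28.3% lower in ubiquitous progerin, and 19.0% higher and 23.0% lower in VSMC progerin. Without ubiquitous progerin pool 2 or wild-type control pool 1, 0 were lower in ubiquitous progerin, and without VSMC progerin pool 3, 2 were higher in VSMC progerin. Their median log2 fold change was 0.20 in ubiquitous progerin, where that of all genes was close to 0. Ddx39b, a helicase of the export machinery, averaged 226 ± 13 CPM in ubiquitous progerin and 158 ± 7.20 CPM in wild-type control (SD; 0.51 ± 0.06, edgeR adjusted p = 1.77e-07). Ddx19a, a helicase related to the one that acts at Nup214, rose in ubiquitous progerin (0.45 ± 0.06, edgeR adjusted p = 4.04e-06) and fell in VSMC progerin (-0.28 ± 0.06, edgeR adjusted p = 0.00128). Gle1, the cytoplasmic helicase activator, averaged 43.0 ± 10.3 CPM in VSMC progerin and 58.0 ± 3.85 CPM in the lamin C-only control (SD; -0.43 ± 0.11, edgeR adjusted p = 0.00644).

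Dividing cells assemble new pores. Of 14 proliferation markers, 4 rose and 1 fell in ubiquitous progerin, and 8 rose and 0 fell in VSMC progerin. That is 35.7% and 57.1% called, against 54.6% and 42.0% of all genes. The 4 were 2 without ubiquitous progerin pool 3 and 7 without wild-type control pool 1, and 0 fell without ubiquitous progerin pool 2 or wild-type control pools 2 or 3. Top2a, a mitotic topoisomerase, averaged 21.3 ± 0.97 CPM in VSMC progerin (n = 3) and 5.58 ± 1.08 CPM in the lamin C-only control (SD, n = 4; log2 fold change 1.93 ± 0.25, edgeR adjusted p = 9.16e-06). The part of these markers in the pore gene results was not tested.

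Some pore genes share ground with other genes, which limits how their counts are read. The start points of 6 of the 28 tested members (21.4%) lay within 1000 bases of that of another coding gene on the other strand, as did 14.7% of 14232 tested coding genes. Nup88 and Rpain, a carrier of replication protein A, start 240 bases apart; Rpain rose in ubiquitous progerin too (0.64 ± 0.09, edgeR adjusted p = 3.29e-06) and in VSMC progerin gave 0.21 ± 0.09 (edgeR adjusted p = 0.0624), where Nup88 fell. Nup98 and Pgap2 start 32 bases apart and both fell in ubiquitous progerin (Pgap2 -0.51 ± 0.08, edgeR adjusted p = 3e-05), as did Nup188 and Dolk, 63 bases apart (Dolk -0.53 ± 0.14, edgeR adjusted p = 0.00227). In VSMC progerin, where Nup188 fell, Dolk gave -0.10 ± 0.13 (edgeR adjusted p = 0.589). The remaining partners, Odr4 of Tpr, Parpbp of Nup37 and Atf5 of Nup62, were not called in ubiquitous progerin. They gave -0.02 ± 0.06, -1.48 ± 0.86 and -0.24 ± 0.12. In VSMC progerin Odr4 fell as Tpr did (-0.29 ± 0.06, edgeR adjusted p = 0.000795). Atf5 gave 0.12 ± 0.11 there (edgeR adjusted p = 0.448), where Nup62 fell. Gene bodies on opposite strands overlap for Nup214 with Fam78a, Tpr with Prg4, Nup88 with Rabep1 and Pom121 with Nsun5. They also overlap for Nup43 with Pcmt1 and Nup133 with Gm20388. Whether the exons of these pairs overlap was not examined. The strand setting of the counting is not given in the sources used here, so reads from any shared exon sequence may not be told apart. Nup35 overlaps Dusp19 on the same strand, and Dusp19 fell in ubiquitous progerin as well (-0.94 ± 0.22, edgeR adjusted p = 0.00103). Same-strand overlaps were also found for Nup62 with Il4i1, Nup188 with Gm28038 and Ahctf1 with Kif28. Il4i1 gave -0.65 in ubiquitous progerin and 0.82 in VSMC progerin (edgeR adjusted p = 0.375 and 0.268), where Nup62 gave 0.13 and -0.26. Gm28038 gave -2.03 and -1.83 (edgeR adjusted p = 0.162 and 0.240). Kif28 was not among the tested genes. Exon overlap was not examined for these same-strand pairs. Fractional counts, the mark of reads shared among loci, occurred in all 14 libraries for Tpr, Pom121 and Nup214, in 13 for Nup62, in 11 for Nup188 and in 3 for Nup35, which makes the values of these genes less certain.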

How the data were processed

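Polyadenylated RNA of 14 intima pools was sequenced with a directional kit, per the labels' protocols. Per the submitters' processing notes, the authors used STAR 2.7.10b and RSEM 1.2.28 with GRCm38, and cutadapt 4.1, limma and Trim Galore 0.6.10. The deposited table holds RSEM estimated counts per gene, not normalized; the deposited log2 expression values (13034 genes) served 1 alternative. The strand setting of the counting is not given in the sources used here. Estimated counts were rounded for edgeR 4.0.16 (R 4.3.3): quasi-likelihood test, TMM scaling, filterByExpr by group, all 14 libraries in 1 fit, Benjamini-Hochberg over 14269 genes, with calls at adjusted p below 0.05, whatever the fold. CPM values are TMM-scaled. The alternatives included DESeq2 1.42.0 and limma 3.58.1. Gene positions are from GENCODE M21. Members and lists were chosen with earlier results of these data known. Genes given with every library's value were the 5 called members of smallest p per direction and comparison, called members changed by 0.5 or more on the log2 scale, and members called in the difference; other members are given as ranges, means or, where their call needed it, by pool. One list of related genes is not reported here.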

Additional observations from a re-analysis of the deposited data

Results flagged for a closer look

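In 56 sets of 4 control values, 1 pool stood apart from the other 3 in 3 sets, and 2.8 would be expected from a test that marks 1 in 20 by chance. Nup35 was 8.22 CPM in wild-type control pool 1, where the others had 10.5 to 10.8 CPM. Tpr was 189 CPM in the same pool, where the others had 149 to 156 CPM. Seh1l was 52.2 CPM in wild-type control pool 2, where the others had 43.2 to 44.6 CPM.

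For 10 genes the ubiquitous progerin effect differed from the VSMC progerin effect in a test of the difference itself (edgeR, adjusted over all genes). The ubiquitous progerin effect minus the VSMC progerin effect, on the log2 scale, was 1.01 for Nup88, 0.85 for Nup155, 0.64 for Pom121, 0.38 for Nup214, 0.38 for Nup62 and 0.34 for Ahctf1. It was -0.80 for Nup160, -0.76 for Nup35, -0.63 for Nup37 and -0.56 for Sec13. The groups also differ in the lamin forms of their controls, so the reach of progerin and the background of the control cannot be told apart here.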

How the results depend on the processing

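No pore gene result changed sign among called values in the alternatives run. The count of genes lower in VSMC progerin was 10 as reported, 5 with upper-quartile scaling, 14 with library totals alone, 7 with relative log expression scaling, DESeq2, the 2 groups compared alone, or mitochondrially encoded genes left out, and 8 with pool number as a replicate block. Leaving out 1 pool gave 5 to 10 for that count, 3 to 4 for genes higher in VSMC progerin, 4 to 7 higher and 3 to 5 lower in ubiquitous progerin, and 4 to 6 higher and 3 to 4 lower for the difference. The median log2 fold change in VSMC progerin was -0.17 as reported, -0.10 with upper-quartile scaling and -0.25 with library totals alone, and -0.20 to -0.13 with 1 pool left out. The median of the difference was 0.12 as reported, 0.048 and 0.19 under those scalings, and 0.086 to 0.15 with 1 pool left out. The median in ubiquitous progerin ranged from -0.034 to 0.020 and that between controls from -0.07 to -0.02 with 1 pool left out. The cause of these shifts was not tested. Pools of equal number did not deviate together (none of 19 pairs had a correlation above 0.1), and nothing in the labels pairs them. That correlation runs over all genes, so it cannot exclude a block effect on single genes. Between controls, edgeR called 25 of all genes, DESeq2 103 and edgeR without the filter 40; none was a pore gene. With 3 or 4 pools a group, counts of a few reads, as for Nup210 and Nup210l, carry wide errors.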

Other observations

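Sec13 and Seh1l also work outside the pore, so genes of those other complexes were read after the pore values were seen. Only Sec31a, Sec24d, Wdr59 and Mios are given here, as values. Other COPII and GATOR2 genes that were read are not shown, so these do not stand for either complex as a whole. Sec31a, which pairs with Sec13 in the COPII coat, averaged 163 ± 1.46 CPM in VSMC progerin (n = 3) and 154 ± 2.12 CPM in the lamin C-only control (SD, n = 4), and 122 ± 1.02 CPM in ubiquitous progerin (n = 3) and 161 ± 7.55 CPM in wild-type control (SD, n = 4). Sec24d, a cargo adaptor of the coat, averaged 80.4 ± 4.15 CPM in VSMC progerin and 79.7 ± 5.12 CPM in the lamin C-only control, and 58.3 ± 2.26 CPM with ubiquitous progerin and 81.0 ± 5.21 CPM in wild-type control (SD). Wdr59, a subunit of GATOR2, averaged 15.3 ± 0.53 CPM in VSMC progerin and 23.5 ± 2.33 CPM in the lamin C-only control, and 14.5 ± 0.46 CPM with ubiquitous progerin and 24.8 ± 3.00 CPM in wild-type control (SD). Mios, also of GATOR2, averaged 20.9 ± 2.27 CPM in VSMC progerin and 18.7 ± 2.91 CPM in the lamin C-only control, and 21.8 ± 0.40 CPM with ubiquitous progerin and 18.8 ± 0.97 CPM in wild-type control (SD).

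Nup42, a cytoplasmic filament protein, is in the table under its older symbol, Nupl2, outside the symbols searched. It averaged 7.64 ± 0.54 CPM with ubiquitous progerin and 5.71 ± 0.79 CPM in wild-type control, and 5.70 ± 1.40 CPM in VSMC progerin and 5.97 ± 0.78 CPM in the lamin C-only control (SD).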
